A study of Mus musculus with 3 samples.

Results

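*Clec9a* and 7 genes that act with its product were followed through the tumour dendritic cells of 3 single-cell libraries. The 8 genes, *Clec9a*, *Syk*, *Plcg2*, *Card9*, *Vav1*, *Ptpn6*, *Cybb* and *Cyba*, were taken by name and are 8 of the 32285 genes counted in each library. *Clec9a* encodes DNGR-1, a C-type lectin receptor of type 1 conventional dendritic cells (cDC1s) that binds actin filaments exposed by dead cells. Its short cytoplasmic motif recruits the kinase SYK, which in myeloid cells can pass signals on through the phospholipase PLCγ2, the exchange factor VAV1 and the adaptor CARD9, while the phosphatase SHP-1, the product of *Ptpn6*, can dampen them. *Cybb* and *Cyba* encode the membrane subunits of the phagocyte NADPH oxidase NOX2, an enzyme that acts at phagosomes after uptake of dead cell material.

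The study compared C57BL/6J wild-type (WT) mice, mice without secreted gelsolin (*sGsn-/-*) and mice without both secreted gelsolin and DNGR-1 (*sGsn-/- Clec9a-/-*), all bearing tumours of the transplanted fibrosarcoma line MCA205 LA-OVA on both flanks. Secreted gelsolin severs actin filaments outside cells. Tumours were taken on day 5 from co-housed mice of 6 to 20 weeks and pooled by genotype, and pre-cDCs, XCR1+ cDC1s and Sirpa+ cDC2s were sorted from live CD45+ lineage- CD11c+ MHCII+ CD88- cells and mixed. The WT pool held 37 mice (25 males and 12 females), the *sGsn-/-* pool 31 (15 males and 16 females) and the *sGsn-/- Clec9a-/-* pool 27 (10 males and 17 females), so that there is 1 library per genotype and the share of each sex differs between them.

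Each library counts unique molecular identifiers (UMIs), one for each captured transcript, per gene and cell barcode. The WT library held 12763 barcodes and 176578136 UMIs, the *sGsn-/-* library 8173 barcodes and 109270958 UMIs, and the *sGsn-/- Clec9a-/-* library 9273 barcodes and 113411930 UMIs. The authors placed 2316, 1712 and 1778 of these barcodes in 12 cDC1 clusters, numbered 0 to 11, with a median of 14092, 14150 and 12231 UMIs per cell. Libraries shared few barcode sequences, 26 between WT and *sGsn-/-*, 28 between WT and *sGsn-/- Clec9a-/-*, and 27 between the other two, of which 2, 2 and 3 were cDC1s in both. Among genes other than *Clec9a*, 9 of 9 cDC1 markers had UMIs in the cDC1s of every library. Their summed level was 3771, 3642 and 3928 CPM (UMIs of a gene per 1000000 UMIs) in the WT, *sGsn-/-* and *sGsn-/- Clec9a-/-* cDC1s, led by *Naaa*. Any UMI in the pooled cells counts as presence, so this does not test the cDC1 label. Values in sets of 3 below follow this order of libraries.

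Clusters are grouped as the authors grouped them, into early cDC1s (clusters 4 and 1), resting cDC1s (0, 2, 3, 5 and 6) and activated cDC1s (7, 8, 9 and 10). Cluster 11, rich in mitochondrial transcripts and made of 19, 29 and 12 cells, is given as values only. UMIs were summed per library and cluster, the libraries served as replicates (n = 3, and n = 2 for *Clec9a*, for which the *sGsn-/- Clec9a-/-* library is the background), and edgeR tested the sums by quasi-likelihood, with genes called at a Benjamini-Hochberg adjusted p under 0.05. Since the clusters were drawn on the same counts, an adjusted p tells how well the libraries match and not whether a cluster exists, and an SD over libraries holds any difference between genotypes. A fold change against resting cDC1s is taken against the mean log level of the 5 resting clusters, each weighted equally and scaled by TMM factors, so it can differ from the ratio of pooled CPM. CPM of single libraries and ratios between them carry exact 95% intervals, which cover counting error only.

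*Clec9a* (ENSMUSG00000046080, mm10 chromosome 6, 129408862 to 129424763, plus strand) was counted at 168 CPM (164 to 173) in WT and 168 CPM (163 to 174) in *sGsn-/-* cDC1s, from 5502 and 3970 UMIs. In *sGsn-/- Clec9a-/-* cDC1s 2 UMIs were found, 0.0931 CPM (0.0113 to 0.336), 1 in cluster 5 and 1 in cluster 7. The label of the deleted gene therefore held in the counts. The background of the other libraries is read from NK-like barcodes. With every cell thinned to 3900 UMIs, 45.3% of WT and 43.8% of *sGsn-/-* cDC1s held a *Clec9a* UMI, against 0.0601% of the cDC1s without the gene.

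Among clusters *Clec9a* was lowest in cluster 8, at 80.4 CPM in WT and 92.9 CPM in *sGsn-/-* cells, and in the early cluster 4, at 91.3 and 99.7 CPM. The other early cluster, 1, followed at 109 and 122 CPM, then the resting cluster 5 at 113 and 134 CPM, cluster 10 at 120.5 and 168 CPM and cluster 3 at 163 and 154 CPM. From cluster 8 to cluster 3 each cluster overlaps with the next in the range of its libraries, except for clusters 4 and 1. A second group lay between 203 and 229 CPM in both libraries: the resting clusters 2 (207 and 209 CPM), 0 (215 and 213 CPM) and 6 (228 and 211 CPM) and the activated clusters 9 (204 and 225 CPM) and 7 (203 and 229 CPM). Among these, the ranges of clusters 7 and 9 cover those of clusters 2, 0 and 6 in large part, and all of them lie above cluster 3. Cluster 11 gave 115 and 243 CPM from 5 and 19 UMIs.

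**Figure D1:**
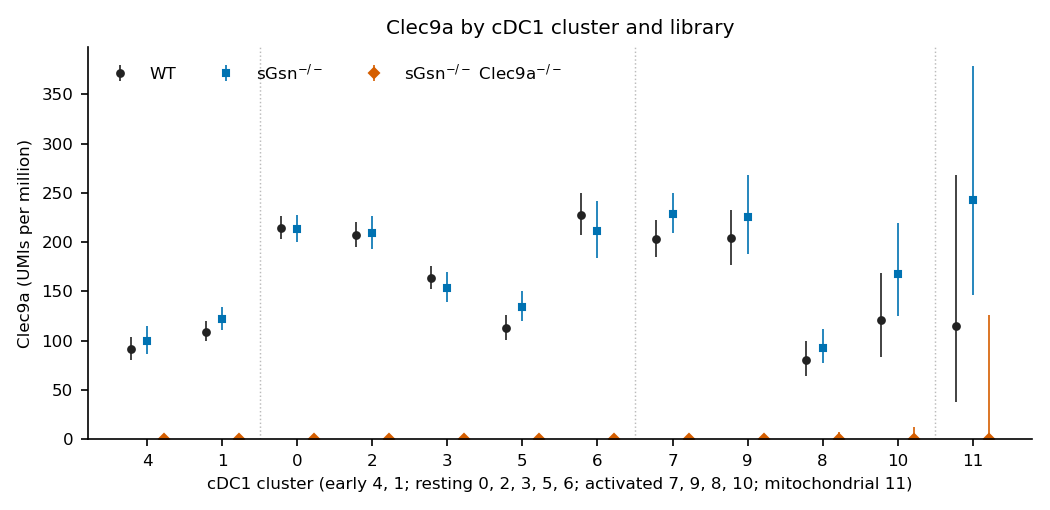
CPM of *Clec9a* (vertical axis) in each cDC1 cluster (horizontal axis), in the WT (black), *sGsn-/-* (blue) and *sGsn-/- Clec9a-/-* (orange) library, with exact Poisson 95% intervals. In both libraries with the gene, clusters 4, 1 and 8 lie at or below 122 CPM and clusters 0, 2, 6, 7 and 9 above 200 CPM, and the library without it lies at 0 or just above.

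*Clec9a* was thus lower in early than in resting cDC1s. Early cells gave 102 CPM in WT and 114 CPM in *sGsn-/-*, and resting cells 189 and 187 CPM, so early cells held 0.541 (0.498 to 0.586) and 0.612 (0.561 to 0.667) of the resting level. In the fit on 2 libraries *Clec9a* fell by 0.75 log2 units in early cDC1s (SE 0.0710, adjusted p = 5.2e-10, lower in 2 of 2 libraries), a comparison in which 40.4% of 9880 genes were called. In cluster 4 the sum of the 9 cDC1 markers was 1927, 2074 and 2125 CPM. The share of thinned cells with a *Clec9a* UMI was 32.0% (27.9 to 36.4) and 27.9% (23.6 to 32.5) in early cells, and 49.0% (46.4 to 51.6) and 49.8% (46.5 to 53.1) in resting cells. *Xcr1*, another receptor gene of cDC1s, was at 130 ± 18.3 CPM (SD, n = 3) in early and 251 ± 15.03 CPM in resting cells.

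The 4 activated clusters split. Cluster 8 held 7 of 7 markers of activated dendritic cells in every library, with a sum of 7306, 6218 and 4044 CPM. This list includes *Ccr7* and *Fscn1*, which the authors name among the genes enriched in cluster 8. The authors matched all 4 activated clusters to mature cDC1s of the spleen. *Clec9a* fell in cluster 8 by 0.80 log2 units (SE 0.119, adjusted p = 1.3e-06, where 46.1% of genes were called), and the ratios to resting cells were 0.424 (0.337 to 0.527) and 0.497 (0.410 to 0.598). The sum of cDC1 markers, 9 of 9 present, was lower in cluster 8 as well, at 1416, 1337 and 1789 CPM, led by *Irf8*, against 3150 to 6017 CPM over resting clusters and libraries, and *Xcr1* stood at 149 ± 29.9 CPM (SD, n = 3). In cluster 7 *Clec9a* rose by 0.38 (SE 0.0858, adjusted p = 0.00131, 19.4% of genes called), with ratios of 1.07 (0.969 to 1.18) in WT and 1.22 (1.11 to 1.35) in *sGsn-/-* cells. The rise in cluster 7 is thus small and, in WT, within counting error when resting cells are pooled. Cluster 9 had a log2 difference of 0.29 (SE 0.107, adjusted p = 0.155, 4.60% of genes called). Cluster 10 had one of -0.36 (SE 0.162, adjusted p = 0.161, 12% of genes called), from ratios of 0.636 (0.440 to 0.890) and 0.897 (0.668 to 1.18). Neither of these passed the threshold, and for cluster 10 the value rests on the library: it is -0.65 without the *sGsn-/-* and -0.11 without the WT library. Set against each other, cluster 8 lay below cluster 10 by 0.44 log2 units (SE 0.203, adjusted p = 0.124, 21.7% of genes called), and this difference did pass with plain library sizes in place of TMM factors (-0.73, adjusted p = 0.00582).

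*Syk* (ENSMUSG00000021457, chromosome 13, 52583173 to 52648792, plus strand), the kinase next to the receptor, ran the other way in early cells. It was counted at 54.5, 52.5 and 47.4 CPM in all cDC1s, at 74.3, 71.6 and 68.1 CPM in early cells and at 48.9, 46.8 and 38.6 CPM in resting cells. Every library was higher in early cells, and the 2 sets of values do not overlap. *Syk* rose in early cDC1s by 0.66 log2 units (SE 0.0875, adjusted p = 5.9e-08). Of the early clusters, cluster 1 held 63.3, 68.2 and 62.6 CPM, and cluster 4 92.9, 77.9 and 77.6 CPM. Cluster 4 also held markers of cDC2s and pre-cDCs (values with *Cybb* below), classes with more *Syk* than cDC1s, and the part of their transcripts in the *Syk* level was not tested. Early cells therefore had more *Syk* and less *Clec9a* transcript than resting cells, in the libraries where both could be counted.

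Among the activated clusters, *Syk* passed the threshold against resting cells in cluster 8, with a rise of 0.92 (SE 0.155, adjusted p = 4.2e-06), from 64.9, 62.2 and 114 CPM. The *sGsn-/- Clec9a-/-* library stands apart there, with 114 CPM from 59 UMIs in 57 cells, and its ratio to resting cells, 2.97 (2.23 to 3.89), lies above those of WT, 1.33 (1.02 to 1.70), and *sGsn-/-*, 1.33 (1.04 to 1.68). Clusters 7, 9 and 10 did not pass (adjusted p = 0.336 for cluster 7), with 45.2, 28.9 and 38.8 CPM in cluster 7. Cluster 8 was not compared directly with clusters 7 and 9. Cluster 8 also lay above cluster 10 by 0.74 (SE 0.281, adjusted p = 0.0446), but that call was lost without any 1 of the libraries (0.997, adjusted p = 0.0545 without WT, 0.79, adjusted p = 0.112 without *sGsn-/-* and 0.57, adjusted p = 0.160 without *sGsn-/- Clec9a-/-*) and on thinned cells (0.60, adjusted p = 0.356). Within the resting group *Syk* was highest in cluster 6, at 79.2, 73.4 and 69.2 CPM, close to the early cluster 4.

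*Plcg2* (ENSMUSG00000034330, chromosome 8, 117498291 to 117635142, plus strand), which encodes the phospholipase that makes the calcium-releasing messenger, varied little between early and resting cells. It gave 64.9, 65.3 and 63.7 CPM in early and 76.2, 69.4 and 77.2 CPM in resting cells, lower in early cells of 3 of 3 libraries. *Plcg2* fell by 0.19 log2 units in early cDC1s (SE 0.0750, adjusted p = 0.0349), and the call did not hold without the WT (-0.16, adjusted p = 0.197) or the *sGsn-/- Clec9a-/-* library (-0.15, adjusted p = 0.176), without the filter on low counts (-0.18, adjusted p = 0.0587) or on thinned cells (-0.14, adjusted p = 0.305). It fell more in cluster 8, by 0.50 (SE 0.146, adjusted p = 0.00430), where it was counted at 46.5, 38.6 and 52.4 CPM. Cluster 10 gave 85.0, 29.0 and 40.2 CPM from 24, 9 and 12 UMIs. WT stands apart from the other libraries there: the difference from resting cells was -0.56 (adjusted p = 0.0685) with all libraries and -1.10 (adjusted p = 0.00719) without WT. It passed as well without the filter on low counts (-0.66, adjusted p = 0.0212) and without doublets (-0.64, adjusted p = 0.0322). Cluster 11 aside, the highest *Plcg2* level was that of cluster 6, at 97.1, 96.5 and 104 CPM.

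*Vav1* (ENSMUSG00000034116, chromosome 17, 57279100 to 57328031, plus strand), whose product activates Rac GTPases, was level between early and resting cells, with a log2 difference of -0.02 (adjusted p = 0.866). It stood at 52.2, 53.7 and 50.1 CPM in all cDC1s. Among resting clusters, cluster 6 was again the highest, at 77.2, 84.4 and 85.3 CPM. In cluster 8 *Vav1* fell by 0.44 (SE 0.131, adjusted p = 0.00483), from 24.2, 36.2 and 46.6 CPM, and in cluster 10 it gave 70.9, 77.3 and 77.0 CPM. The ratio to resting cells was 0.457 (0.294 to 0.678) in WT, 0.649 (0.471 to 0.874) in *sGsn-/-* and 0.926 (0.589 to 1.39) in *sGsn-/- Clec9a-/-* cells, and the fall did not pass without WT (-0.25, adjusted p = 0.231). Directly compared, cluster 8 lay 0.90 log2 units below cluster 10 (SE 0.203, adjusted p = 9.5e-04), lower in 3 of 3 libraries, a call lost on thinned cells (-0.92, adjusted p = 0.229).

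*Card9* (ENSMUSG00000026928, chromosome 2, 26352176 to 26360918, minus strand), the adaptor through which SYK can reach NF-κB, was counted at 8.32, 8.70 and 7.54 CPM in cDC1s and passed the threshold in none of the comparisons among cDC1 clusters. Its highest mean level, 10.96 ± 0.664 CPM (SD, n = 3), was in cluster 4, cluster 11 aside. In cluster 8 it gave 9.69, 7.87 and 1.94 CPM, the last from a single UMI.

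*Ptpn6* (ENSMUSG00000004266, chromosome 6, 124720707 to 124738714, minus strand) had nearly the same level in the 3 libraries, 113, 114 and 113 CPM. Its mean was highest in cluster 4, at 149, 142 and 150.2 CPM, and in cluster 7, at 140.3, 153 and 148 CPM. It rose in cluster 7 by 0.56 log2 units (SE 0.0727, adjusted p = 7.7e-08), higher in 3 of 3 libraries. In early cells it rose by 0.19 (SE 0.0553, adjusted p = 0.00374), from 108, 108 and 108 CPM in resting to 119, 120.5 and 117 CPM in early cells, and this smaller call was lost without WT (0.19, adjusted p = 0.0654) and on thinned cells (0.19, adjusted p = 0.0647). Cluster 1 held 102, 109 and 97.6 CPM, near or below the resting level, so the higher CPM of early cells lies in cluster 4. Cluster 4 also held markers of cDC2s and pre-cDCs (values with *Cybb* below). Clusters 8 and 10 did not pass, with log2 differences of 0.21 (adjusted p = 0.0668) and 0.29 (adjusted p = 0.140).

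*Cybb* (ENSMUSG00000015340, chromosome X, 9435252 to 9487771, minus strand), the gene of the catalytic NOX2 subunit, was the member with the widest range among cDC1 clusters as a ratio of mean levels. Its means ran from 2.22 CPM in cluster 0 to 39.9 CPM in cluster 4, while *Cyba* had the widest range in CPM. In resting cells *Cybb* was at 3.88 (3.09 to 4.82), 3.79 (2.82 to 4.98) and 2.24 CPM (1.51 to 3.2004). NK-like barcodes held 9.96 (7.89 to 12.4), 2.15 (1.36 to 3.22) and 2.64 CPM (1.57 to 4.18). The resting interval lies below the NK-like one in WT and overlaps it in the other libraries, and the ratio of the levels was not tested. The log2 differences below are taken over the resting level, and no background was taken off. In cluster 1 *Cybb* stayed at 4.88, 4.51 and 2.62 CPM. Cluster 4 held 44.7, 26.3 and 48.7 CPM, so the early group's rise of 1.83 log2 units (SE 0.209, adjusted p = 1.9e-09) lies in cluster 4, which stood above the NK-like level in 3 of 3 libraries. Markers of cDC2s also stood higher in cluster 4. Of 6 markers 5 had UMIs in every library (*Clec4a4* was at 0), and their sum was 321, 252 and 329 CPM, led by *Cd209a*, against 17.02 to 36.2 CPM over resting clusters and libraries. Pre-cDC markers were higher there too: 8 of 8 had UMIs, with a sum of 391, 391 and 307 CPM, against 146 to 199 CPM in resting clusters 0, 2, 3 and 5. Cluster 6, at 452, 445 and 386 CPM, owed most of its sum to *Flt3* (426, 412 and 361 CPM). Monocyte or macrophage markers, 10 of 10 with UMIs, summed to 539, 438 and 548.5 CPM in cluster 4, of which *Ccr2* made up 327, 279 and 309 CPM. Over resting clusters and libraries the sum was 294 to 504 CPM. It was highest in cluster 6 (470.2, 504 and 457 CPM), where *Ccr2* made up 400, 426 and 403 CPM. The part of transcripts of these other cell types in the levels of *Cybb* and other genes in cluster 4 was not tested.

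*Cybb* also rose in 2 activated clusters. In cluster 7 it gave 13.2, 16.1 and 18.8 CPM, a rise of 2.24 log2 units (SE 0.246, adjusted p = 1.2e-09). In WT this level (8.88 to 18.8 CPM) overlaps that of NK-like barcodes, and in the other libraries it lies above it. The summed CPM of plasmacytoid markers was higher in cluster 7, at 885, 924 and 915 against 238 to 375 over resting clusters and libraries. Most of this sum was *Bst2* alone (792, 833 and 838 CPM), and *Klk1* and *Cox6a2* were at 0. The authors describe cluster 7 as enriched in interferon-stimulated genes. Cluster 4 had a plasmacytoid sum of 452, 439 and 427 CPM, while that of cluster 8 was 444, 542 and 351 CPM, led by *Bst2*, with 5 to 7 of 8 markers present. Monocyte or macrophage markers, 10 of 10 with UMIs, summed to 339, 276 and 368 CPM in cluster 7, with less *Ccr2* (195, 150.1 and 176 CPM) than in cluster 0 (252, 246 and 274 CPM). Pre-cDC markers summed to 215, 199.9 and 221 CPM (*Flt3* 132, 128 and 130 CPM), against 170, 174 and 185 CPM in cluster 0 (*Flt3* 153, 153 and 167 CPM), with *Spn* at 0 in *sGsn-/- Clec9a-/-* cells. Plasmacytoid-like and pre-cDC-like barcodes hold more *Cybb* and *Ptpn6* than cDC1s. The sort had left out B220+ and Ly6D+ cells, and the part of such transcripts in the cluster 7 levels of both genes was not tested. In cluster 8 *Cybb* gave 31.0, 17.3 and 21.3 CPM from 32, 22 and 11 UMIs, a rise of 2.91 (SE 0.294, adjusted p = 4.5e-11). All libraries were higher than their resting cells in both clusters, and in cluster 8 also than NK-like barcodes in WT (21.2 to 43.8 CPM), *sGsn-/-* (10.9 to 26.2 CPM) and *sGsn-/- Clec9a-/-* cells (10.7 to 38.2 CPM). In the WT library, monocyte or macrophage markers were also higher in cluster 8: 10 of 10 had UMIs, with a sum of 705 CPM led by *Apoe* (256 CPM), against 135 and 134 CPM in the other libraries, led by *Ccr2*, where *Fcgr1* and *Adgre1* were at 0 in *sGsn-/- Clec9a-/-* cells. Markers of cDC2s summed to 88.2, 17.3 and 40.8 CPM in cluster 8. NK markers there summed to 19.4, 137 and 38.8 CPM, against 13.9 to 79.4 CPM over resting clusters and libraries. T-cell markers summed to 17.4, 32.3 and 3.88 CPM, against 2.78 to 10.1 CPM. The sort had left out CD88+ cells and cells with T-cell or NK-cell lineage antigens. The part of such transcripts in the cluster 8 levels of *Cybb* and *Syk* was not tested. Cluster 10 gave 17.7, 6.44 and 6.69 CPM from 5, 2 and 2 UMIs, a log2 difference of 1.47 that did not pass with edgeR (adjusted p = 0.108) and did with DESeq2 (1.504, adjusted p = 0.0277). Its cDC2 marker sum was 138, 506 and 100.4 CPM, led by *Cd209a*, with 5, 5 and 4 of 6 markers present and *Clec4a4* at 0. Cluster 8 lay above cluster 10 by 1.44 (SE 0.526, adjusted p = 0.0378), a call lost without WT (1.73, adjusted p = 0.106), without *sGsn-/-* (1.45, adjusted p = 0.0863), without *sGsn-/- Clec9a-/-* (1.29, adjusted p = 0.120) and on thinned cells (2.54, adjusted p = 0.153).

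*Cyba* (ENSMUSG00000006519, chromosome 8, 122424776 to 122432930, minus strand), the gene of the partner subunit p22phox, moved in the same direction as *Cybb* in the early group and in clusters 7 and 8. It gave 851, 895 and 877 CPM in resting cells and 1035, 988 and 1061 CPM in early cells, a rise of 0.37 log2 units (SE 0.0516, adjusted p = 1.9e-07). Cluster 8 held the highest level, 1542, 1616 and 1368 CPM, a rise of 1.13 (SE 0.0653, adjusted p = 2.9e-18). *Cyba* also rose in cluster 7, by 0.41 (SE 0.0671, adjusted p = 7.7e-06), and in cluster 10, by 0.46 (SE 0.0753, adjusted p = 1.3e-05), and cluster 8 lay above cluster 10 by 0.67 (SE 0.0958, adjusted p = 4.7e-07). Each of these had the same sign in 3 of 3 libraries, and the call in cluster 10 was lost on thinned cells (0.30, adjusted p = 0.0666). The lowest level was that of cluster 6, 576, 566 and 564 CPM, the resting cluster with the highest *Syk*, *Plcg2* and *Vav1*. Cells of cluster 6 held fewer UMIs, a median of 9374, 7237 and 8288.5.

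**Figure D2:**
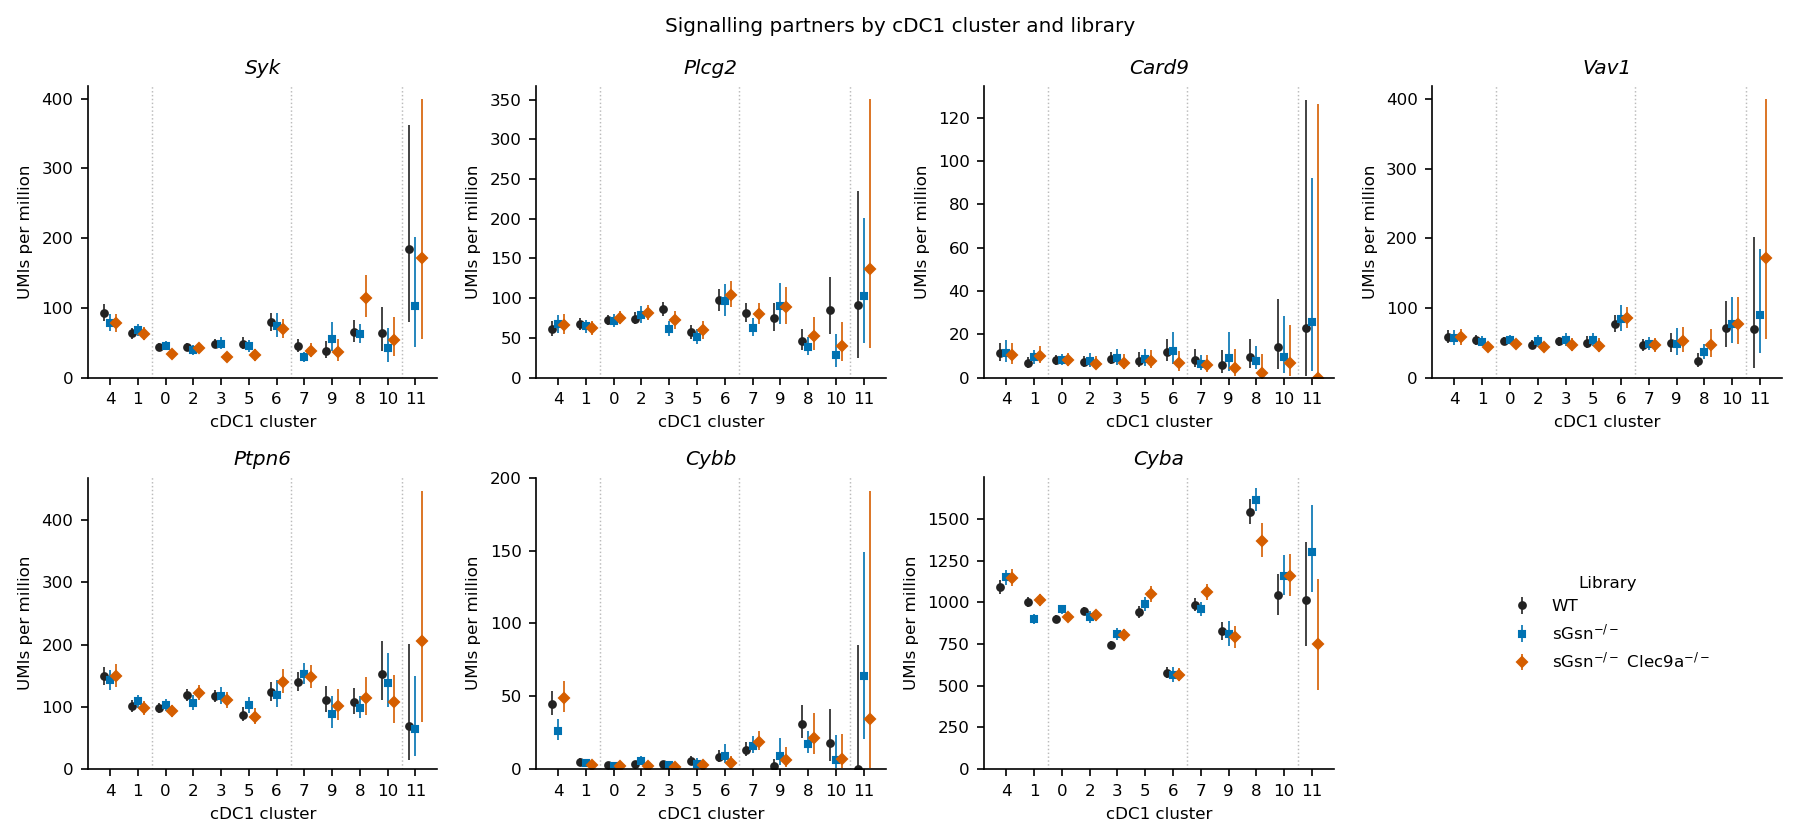
CPM (vertical axes, each gene on its own scale) of the 7 partner genes in each cDC1 cluster (horizontal axis) and library, with exact Poisson 95% intervals. *Cybb* stands out in cluster 4 (44.7, 26.3 and 48.7 CPM) and *Cyba* in cluster 8 (1542, 1616 and 1368 CPM), and the wide intervals of cluster 11 come from its few UMIs.

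Counted over the 7 partners, 5 were called in early against resting cDC1s (*Syk*, *Cybb*, *Cyba* and *Ptpn6* higher, *Plcg2* lower), where 46.9% of the 9606 genes tested were called. For cluster 7 the count was 3 (*Cybb*, *Ptpn6* and *Cyba*, all higher; 24.4% of genes), for cluster 8 it was 5 (*Cyba*, *Syk* and *Cybb* higher, *Plcg2* and *Vav1* lower; 48.3%), and for cluster 10 it was 1 (*Cyba*; 17.7%). Between clusters 8 and 10, 4 partners were called (*Cyba*, *Syk* and *Cybb* higher in cluster 8, *Vav1* lower; 27.2%). In cluster 9, edgeR called 0 of the 7 partners, 0 had an unadjusted p under 0.05, and DESeq2 gave the same counts of 0 and 0, where 6% of genes were called. In cluster 10, 5 of the 7 partners had an unadjusted p under 0.05, with edgeR and with DESeq2, and in cluster 8 there were 6 with each. The share of all genes under this unadjusted threshold was not taken. The unadjusted counts therefore have no background to be set against. Without TMM factors the median log2 difference over all genes was -0.14 in cluster 7 (-0.01 with them), -0.27 in cluster 8 (-0.01) and -0.16 between clusters 8 and 10 (0.08). The partner calls kept their signs in that setting, but those of *Syk* (0.50, adjusted p = 0.221) and *Cybb* (1.19, adjusted p = 0.0981) between clusters 8 and 10 were lost.

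Outside the deposited cDC1s, barcodes were clustered anew with the 8 genes left out of the variable genes and named from marker lists. NK-like barcodes, which should lack it, gave 3.91 CPM in WT and 2.43 CPM in *sGsn-/-*, with a UMI in 3.29% and 1.80% of barcodes at a median depth of 8517 and 6999.5 UMIs. cDC2-like barcodes were at 3.04 and 4.56 CPM, with a UMI in 3.33% and 4.99% at median depths of 14295 and 14518 UMIs, and monocyte- or macrophage-like barcodes were at 3.67 CPM and 5.12 CPM (3.81 to 6.73). In WT these levels lie within the interval of the NK-like background, 2.66 to 5.55 CPM, and in *sGsn-/-* cells the cDC2-like value (3.41 to 5.98 CPM) overlaps the background, 1.59 to 3.56 CPM, while the monocyte- or macrophage-like value lies above it. A cluster with 7 NK, 4 T-cell and 6 proliferation markers and 19.9% doublets, left unnamed, held 13.6 and 18.8 CPM, and the background rests on the named NK-like barcodes alone. Levels within the background are not read as expression, since free RNA gives UMIs in any barcode.

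Pre-cDC-like barcodes stood above that background, with *Clec9a* at 26.1 CPM (23.6 to 28.8) in WT and 41.6 CPM (36.8 to 47.0) in *sGsn-/-* cells, and with a UMI in 20.2% and 28.7% of barcodes at median depths of 10729.5 and 10397.5 UMIs. *Xcr1* was low in the same barcodes, 3.45 and 6.71 CPM. There were 7.58 and 6.21 *Clec9a* UMIs for each *Xcr1* UMI, against 0.821 and 0.756 in cDC1s, so the ratio of these genes differed from that in cDC1s. Relative to cDC1s, *Clec9a* was lower in pre-cDC-like barcodes by 2.57 log2 units (SE 0.145, adjusted p = 5.6e-11, 46.5% of 13073 genes called). In cDC2-like barcodes the fitted difference was -5.61 (SE 0.182, adjusted p = 4.1e-14, 53.1% of genes called), for a level that was not set apart from the background in WT.

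The signalling genes were spread more widely. *Card9* rose relative to cDC1s in cDC2-like barcodes, at 23.9, 24.6 and 20.6 CPM (log2 1.46, SE 0.112, adjusted p = 1.7e-12), and in pre-cDC-like barcodes, at 26.5, 32.3 and 26.1 CPM (1.57, SE 0.116, adjusted p = 1.1e-12). *Syk* rose to 103, 98.6 and 103 CPM in cDC2-like barcodes (0.95, SE 0.0922, adjusted p = 3.6e-10) and to 113, 113 and 103 CPM in pre-cDC-like ones (0.89, SE 0.0936, adjusted p = 2.2e-09). *Ptpn6* rose to 181, 195 and 186 CPM (0.69, SE 0.0685, adjusted p = 5.8e-10) and to 243, 261 and 234 CPM (0.91, SE 0.0690, adjusted p = 2.0e-12). cDC1s thus had the lowest *Syk*, *Card9* and *Ptpn6* of these 3 classes in every library. *Plcg2* had no such difference, with log2 values of 0.00 (adjusted p = 1) and -0.03 (adjusted p = 0.830), and *Vav1* fell in cDC2-like barcodes, at 40.3, 41.6 and 39.8 CPM (-0.39, SE 0.0670, adjusted p = 9.6e-06).

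The NOX2 subunits parted between these classes. *Cybb* was at 163, 161 and 146 CPM in cDC2-like and 257, 333 and 253 CPM in pre-cDC-like barcodes, against 8.78, 8.02 and 8.15 CPM in cDC1s, differences of 4.20 log2 units (SE 0.210, adjusted p = 9.1e-17) and 4.86 (SE 0.214, adjusted p = 7.0e-18). Among the 7 partners, this was the largest fitted difference in both classes. The pre-cDC-like level of *Cybb* is an average over unlike clusters. The precursor cluster that also holds 6 of 8 plasmacytoid markers was at 344 to 428 CPM over libraries. The other precursor cluster was at 157 to 184 CPM, near the cDC2-like level. *Cyba* differed little, at 1092, 1061 and 1145 CPM in cDC2-like barcodes (0.19, adjusted p = 0.107) and 858, 743 and 893 CPM in pre-cDC-like ones (-0.38, SE 0.0990, adjusted p = 0.00155). The cDC2-like value passed with the library as a block (0.18, adjusted p = 0.0187), with library sizes in place of TMM factors (0.22, adjusted p = 0.0183) and without the rule on clusters with markers of 2 types (0.46, adjusted p = 3.8e-04). The pre-cDC-like call was lost without the *sGsn-/-* library (-0.26, adjusted p = 0.0900) and without the precursor cluster that also holds 6 of 8 plasmacytoid markers (0.03, adjusted p = 0.804), which was tried after the data had been seen. That cluster was at 635, 573 and 615 CPM for *Cyba* and the other precursor cluster at 1087, 1009.7 and 1122 CPM.

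Of the 7 partners, 5 were called in cDC2-like barcodes (*Card9*, *Syk*, *Ptpn6* and *Cybb* higher, *Vav1* lower; 58.1% of 12744 genes) and 5 in pre-cDC-like barcodes (*Card9*, *Syk*, *Ptpn6* and *Cybb* higher, *Cyba* lower; 52.9%), both near the share of all genes. With the library as a block, edgeR also called *Vav1* in pre-cDC-like barcodes (-0.16, adjusted p = 0.0357) and *Cyba* in cDC2-like barcodes (0.18, adjusted p = 0.0187). Plasmacytoid-like barcodes, which were not tested, held the highest *Cybb* of the classes drawn, 719, 663 and 531 CPM, and the highest *Syk*, 168, 177 and 174 CPM. NK-like barcodes held the lowest *Card9*, 0.883, 0.467 and 0.440 CPM.

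**Figure D3:**
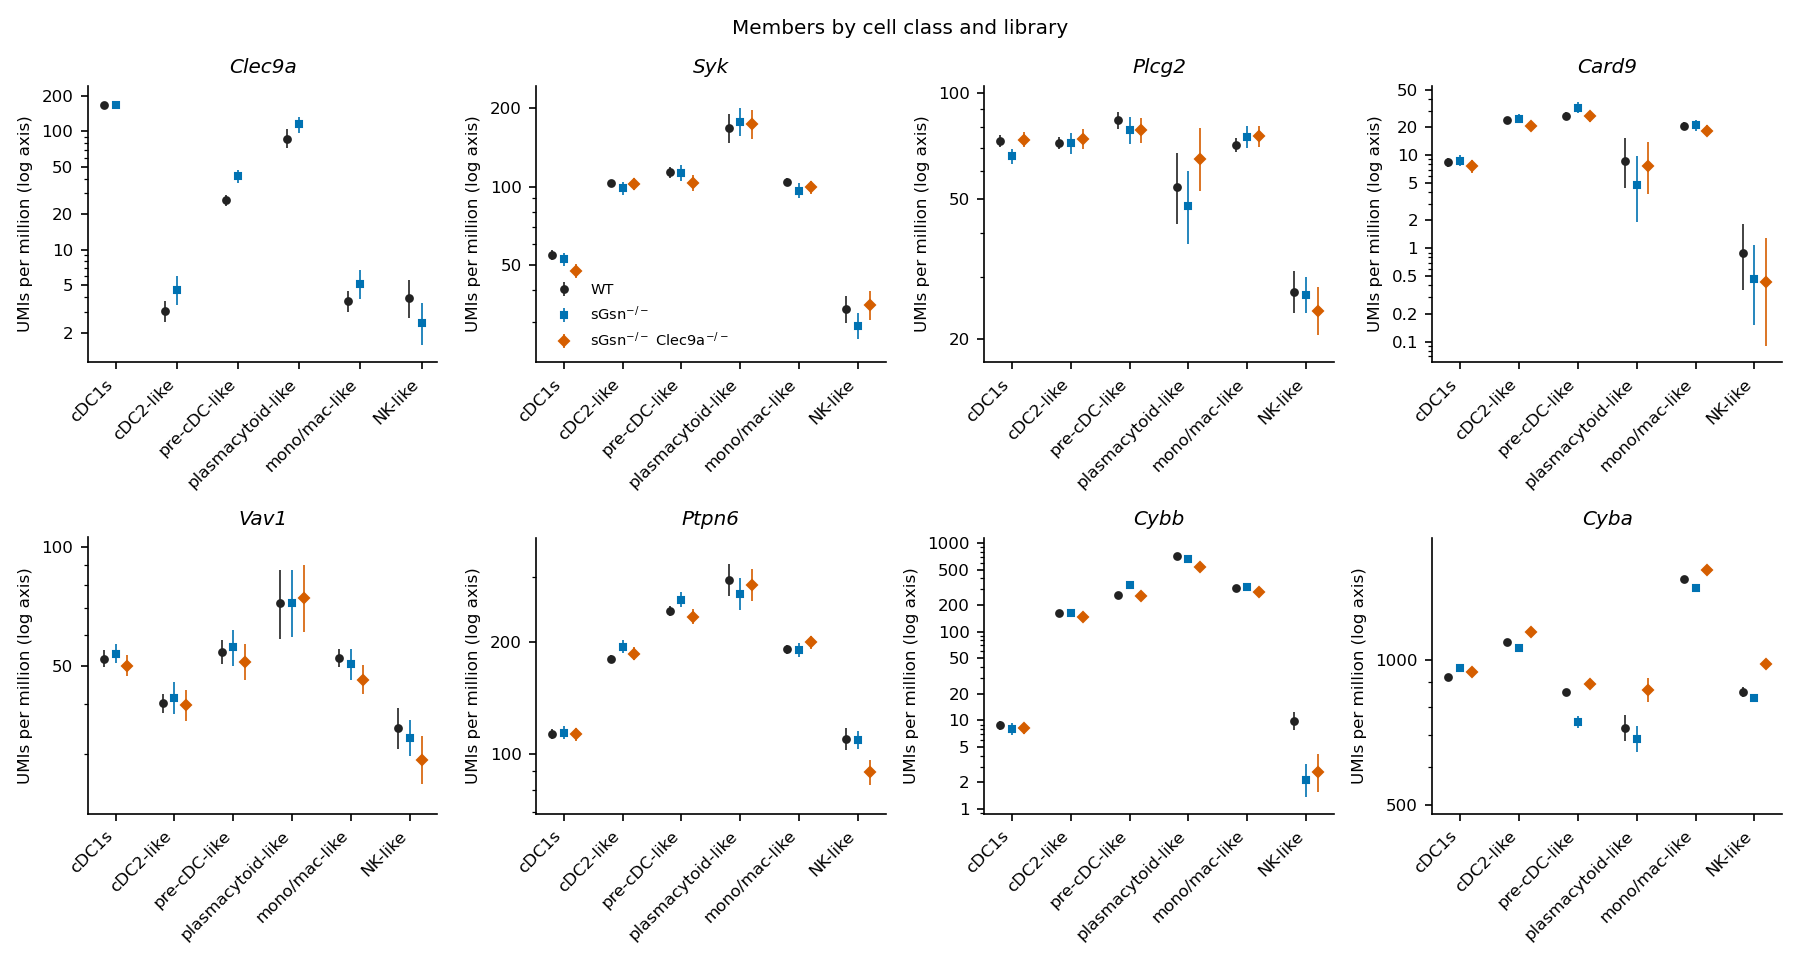
CPM (vertical axes, log scale) of the 8 genes in cDC1s and in 5 classes of other barcodes named from marker genes (horizontal axis), by library, with exact Poisson 95% intervals and without the *sGsn-/- Clec9a-/-* library for *Clec9a*. *Clec9a* is highest in cDC1s (168 and 168 CPM), while *Cybb* is lower in cDC1s (8.78, 8.02 and 8.15 CPM) than in cDC2-like, pre-cDC-like, plasmacytoid-like and monocyte- or macrophage-like barcodes.

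Between genotypes no test is possible with 1 library each, and a gene is called here when it differs by more than 1.5-fold and reaches 10 CPM in either library. In *sGsn-/-* against WT cDC1s 0 of the 8 genes were called, beside 60 of 6634 genes (0.904%, 36 higher and 24 lower). With the 12 clusters weighted equally, the smallest ones included, 51 genes were higher and 184 lower. *Clec9a* had a ratio of 1.0006 (0.960 to 1.04), *Syk* of 0.963 (0.895 to 1.04) and *Plcg2* of 0.904 (0.848 to 0.964). A 1.5-fold difference in *Clec9a* or *Syk* over all cDC1s lies outside these counting intervals. Single clusters of this comparison, with no adjustment over clusters, gave ratios of 0.640 (0.458 to 0.886) for *Syk* in cluster 7 and 0.341 (0.139 to 0.760) for *Plcg2* in cluster 10. For *Cybb* the ratio was 0.589 (0.417 to 0.822) in cluster 4 and 0.559 (0.309 to 0.992) in cluster 8. Smaller differences with intervals that leave out 1 were found too. Among them were *Plcg2* in cluster 3 at 0.713 (0.590 to 0.857) and *Clec9a* in cluster 5 at 1.19 (1.01 to 1.40). In *sGsn-/- Clec9a-/-* against *sGsn-/-* cDC1s 0 of the 7 partners were called, beside 108 of 6591 genes (1.64%, 10 higher and 98 lower, and 111 and 237 with clusters weighted equally). *Clec9a* itself had a ratio of 5.5e-04 (6.7e-05 to 0.00200). *Syk* had a ratio of 0.903 (0.830 to 0.982), *Plcg2* of 1.11 (1.04 to 1.19), *Vav1* of 0.932 (0.858 to 1.01), *Ptpn6* of 0.990 (0.936 to 1.05) and *Cyba* of 0.980 (0.962 to 0.999). *Card9* and *Cybb* lay under 10 CPM, with ratios of 0.867 (0.701 to 1.07) and 1.02 (0.822 to 1.25). In single clusters, with no adjustment over clusters, *Syk* had a ratio of 1.84 (1.29 to 2.61) in cluster 8 and of 0.601 (0.444 to 0.808) in cluster 3, and *Cybb* of 1.85 (1.30 to 2.66) in cluster 4 and of 0.379 (0.132 to 0.973) in cluster 2, from 7 and 16 UMIs. Over all resting cells the ratio of *Cybb* was 0.591 (0.364 to 0.946), from 30 and 51 UMIs. Both resting levels overlap those of NK-like barcodes in their intervals, so this ratio is not read as a difference in expression. The intervals of the ratios in single clusters and resting cells all take in differences of less than 1.5-fold. Within the early group, *Cybb* was lower in *sGsn-/-* (12.1 CPM) than in WT (19.8 CPM) and *sGsn-/- Clec9a-/-* cells (19.5 CPM), where the cDC2 markers of cluster 4 were lower as well.

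*Clec9a* lies in a cluster of lectin genes on chromosome 6, and 5 of its neighbours were counted. Its start overlaps the end of *Clec1b* on the same strand, so UMIs from the stretch they share cannot be assigned with certainty, and the intronic gene *Gm43914* lies inside it. *Gm43914* gave 1116, 811 and 0 UMIs in cDC1s. *Clec1b* was at 8.26, 8.49 and 3.26 CPM and *Clec1a*, whose end lies next to the end of *Clec9a* on the opposite strand, at 7.56, 7.13 and 3.07 CPM. Both were lower in the library without *Clec9a*, and the intervals of that library (2.54 to 4.12 CPM for *Clec1b*) do not reach those of the others. *Clec12a* ran the other way, at 133, 129.7 and 163.5 CPM. *Clec12b* gave 3, 2 and 4 UMIs and *Olr1* 15, 11 and 3 UMIs, too few to compare. Whether these differences come with the genotype, the deletion itself or the pool of mice cannot be told apart with 1 library each.

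**Figure D4:**
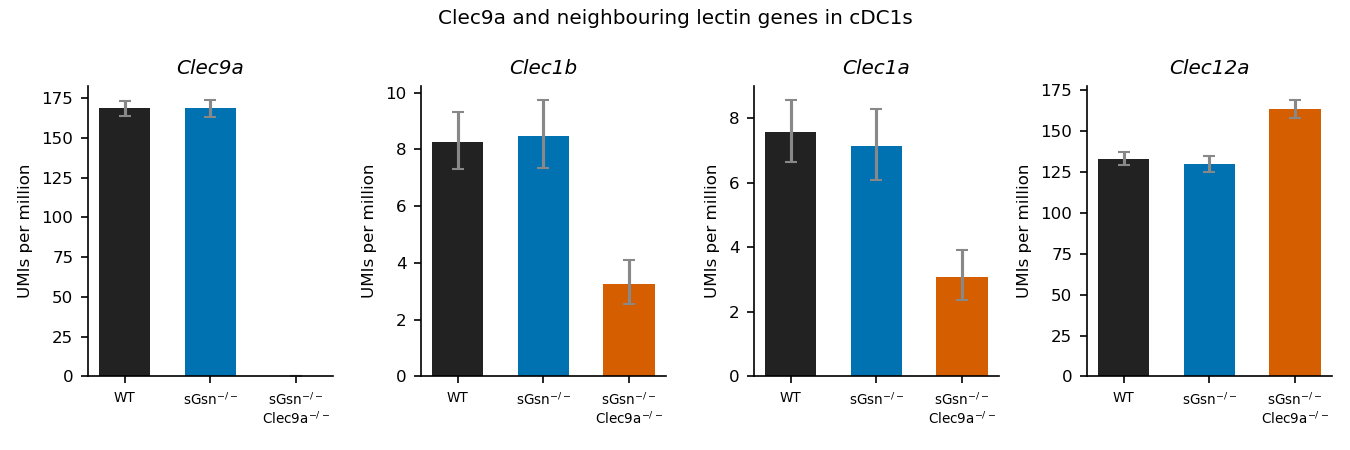
CPM (vertical axes, each gene on its own scale) of *Clec9a* and 3 neighbouring lectin genes in the cDC1s of each library, as bars with exact Poisson 95% intervals. *Clec1b* (8.26, 8.49 and 3.26 CPM) and *Clec1a* (7.56, 7.13 and 3.07 CPM) are lower and *Clec12a* (133, 129.7 and 163.5 CPM) is higher in the library without *Clec9a*.

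The genes around the 8 members were followed in 7 lists, whose counts are given as descriptions, since no list was tested against other genes. In early against resting cDC1s, where 46.9% of all genes were called, 5 of 9 tested C-type lectins and adaptors with an activating motif were higher and 1 lower (median log2 0.37, against -0.00 over all genes). Among them were *Tyrobp* and *Fcer1g*, the adaptors of many SYK-coupled receptors: *Tyrobp* rose by 0.57 (SE 0.0540, adjusted p = 2.0e-11) from 800.4 ± 16.1 to 1158 ± 24.6 CPM (SD, n = 3). Of 8 kinases next to SYK, 3 were higher and none lower, among them *Tec* (1.62, SE 0.190, adjusted p = 3.6e-09). Of 6 NADPH oxidase genes, 3 were higher and none lower, among them the cytosolic subunit gene *Ncf4* (0.50, adjusted p = 4.1e-09) and the GTPase gene *Rac2* (0.19, adjusted p = 0.00570). In the calcium list 4 of 10 genes were lower and 2 higher (median -0.05), among them the calcium channel gene *Itpr1* (-0.76, adjusted p = 4.4e-11), and 8 of 15 phosphatases and inhibitors were lower and 3 higher (median -0.21), among them *Ptprj* (-0.85, adjusted p = 1.4e-10). The Vav and Rac list (2 higher, 3 lower of 9) and the CARD9 list (1 higher, 2 lower of 7) were mixed.

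In cluster 8, where 48.3% of all genes were called, genes of the CARD9 list passed although *Card9* itself did not. *Malt1*, the protease of the CARD9 and BCL10 complex, rose by 3.09 log2 units (SE 0.139, adjusted p = 8.3e-22) from 38.8 ± 6.397 to 263 ± 19.98 CPM. *Bcl10* rose by 1.15 (SE 0.105, adjusted p = 2.7e-12) and *Traf6*, a ubiquitin ligase downstream of the complex, by 1.85 (SE 0.203, adjusted p = 3.6e-10). In all, 4 of 7 genes of that list were higher and 1 lower (median 1.15). The same list held 2 higher genes, *Malt1* (2.34, adjusted p = 8.7e-11) and *Bcl10* (0.53, adjusted p = 0.0158), in cluster 10 (17.7% of all genes called), and in cluster 9 (6%) *Bcl10* (0.89, adjusted p = 1.1e-07) and *Malt1* (0.77, adjusted p = 0.0256).

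The NADPH oxidase list was divided in cluster 8, with 2 of 6 genes higher and 3 lower. *Ncf1*, the organiser subunit, rose by 1.5 (SE 0.0878, adjusted p = 4.2e-18) from 76.0 ± 2.91 to 175 ± 22.3 CPM, and *Rac1* by 0.64 (SE 0.0656, adjusted p = 6.5e-11). *Rac2*, the Rac gene of blood cells, fell by 1.38 (SE 0.117, adjusted p = 3.3e-13) from 170.4 ± 10.6 to 58.3 ± 18.5 CPM, and *Cybc1*, a chaperone of the NOX2 subunits, by 0.63 (SE 0.169, adjusted p = 0.00192). Calcium genes were lower in 4 and higher in 1 of 10, with *Nfatc2* (-1.98, adjusted p = 1.6e-08), *Itpr1* (-1.08, adjusted p = 1.7e-08) and the adaptor gene *Lat2* (-1.33, adjusted p = 6.0e-08) down beside *Plcg2*. Of the kinases, 4 of 8 were higher and 2 lower (median 0.73), and of the phosphatases and inhibitors 7 of 15 were higher and 5 lower (median -0.33), with *Cblb*, a ubiquitin ligase that restrains SYK, at 42.3 ± 1.65 CPM in resting cells and 218 ± 26.3 CPM in cluster 8 (2.67, SE 0.103, adjusted p = 3.8e-24). All 9 Vav and Rac genes passed, 5 higher and 4 lower.

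Fewer genes of any kind were called in clusters 7, 9 and 10 (24.4%, 6% and 17.7%), and the counts in the lists were lower as well. In cluster 7, 3 of 8 kinases were higher, among them *Fyn* and *Tec*, *Fcer1g* rose by 0.50 (SE 0.0799, adjusted p = 4.8e-06), 3 of 15 phosphatases and inhibitors were lower, and the oxidase list held 1 higher and 1 lower gene of 6, the higher being *Ncf4* (0.22, adjusted p = 0.0435). In cluster 9, 0 of 6 oxidase genes and 0 of 9 Vav and Rac genes were called by edgeR. In cluster 10, 3 of 8 kinases were higher, and *Lcp2*, the adaptor that joins PLCγ to VAV1, rose by 1.35 (SE 0.297, adjusted p = 7.9e-04) from 20.4 ± 0.131 to 50.4 ± 3.88 CPM. Between clusters 8 and 10, where 27.2% of all genes were called, the CARD9 list had 3 higher genes in cluster 8 and none lower (*Traf6*, *Bcl10* and *Malt1*), and the adaptor and Rac genes *Lcp2* (-1.80, SE 0.391, adjusted p = 4.2e-04) and *Rac2* (-0.998, SE 0.179, adjusted p = 2.9e-05) were lower in cluster 8, beside *Vav1*.

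In cDC2-like barcodes, where 58.1% of all genes were called, 9 of 12 lectin and adaptor genes were higher than in cDC1s and 3 lower (median 3.14), among them *Clec4n*, the gene of Dectin-2 (6.06, SE 0.290, adjusted p = 3.5e-17). *Fcer1g* rose by 1.87 (SE 0.0910, adjusted p = 5.0e-17) from 451 ± 21.1 to 1687 ± 36.1 CPM. *Malt1* rose by 2.57 (SE 0.149, adjusted p = 2.9e-15) and was the 1 gene of 8 in the CARD9 list that passed (median -0.04). In pre-cDC-like barcodes, with 52.9% of all genes called, 9 of 12 lectin and adaptor genes were also higher and 3 lower, including *Clec12a* (-1.78, SE 0.109, adjusted p = 1.3e-14), and *Ncf4* fell by 2.13 (SE 0.112, adjusted p = 4.4e-16) from 192 ± 8.04 to 50.1 ± 10.4 CPM.

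Over the 22 sums of clusters 0 to 10 in the 2 libraries with the gene, the genes whose log2 CPM followed *Clec9a* most closely were *Anpep* (Pearson r = 0.883), *Lmbrd1* (0.880), *Sept3* (0.877), *Il18* (0.865) and *Arsb* (0.865), among 4763 genes that met a limit of 20 CPM. Single sums could lie under this limit, as for *Il18* at 17.7 CPM in its lowest sum. *Kcmf1* (-0.865), *Rdx* (-0.859) and *Mapkapk3* (-0.854) ran most opposite. The sums share libraries and differ in depth, so these are descriptions. Over the 33 sums of 3 libraries, *Syk* was followed most closely by *Ptk2b* (0.801) and *Trps1* (0.774), *Plcg2* by *Hlcs* (0.877) and *Aim2* (0.870), *Vav1* by *Runx1* (0.898) and *Slc4a7* (0.872), *Ptpn6* by *Tcf4* (0.836) and *Mcmbp* (0.721), and *Cyba* by *Edf1* (0.937) and *Myl12a* (0.934). *Card9* (*Senp6*, 0.793, and *Dhx40*, 0.745) and *Cybb* (among the closest *Ifit3*, 0.788) did not themselves meet the limit of 20 CPM, although *Cybb* lay above it in cluster 4 of every library.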

How the data were processed

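Raw UMI counts per gene and barcode were deposited by the authors (Cell Ranger 6.0.1, mm10, no normalisation), with the clusters they called in Seurat (4.0.0 in the deposit, while the methods give version 3 in R 4.0.0). The members and lists were chosen with earlier results of these data known. Sums per library and cluster (or class) were fitted with edgeR 4.0.16 in R 4.3.3 (TMM, filterByExpr, quasi-likelihood F-test, Benjamini-Hochberg over all genes tested), all units in 1 fit. SE is the absolute log2 fold change over the square root of F. Positions are from GENCODE M21.

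Named genes are the 8 members, 5 counted neighbours of *Clec9a*, up to 4 genes per list and comparison with the smallest adjusted p, and the most alike genes: by Pearson correlation of log2(CPM + 1), 5 highest and 3 lowest for *Clec9a* and 2 highest for each partner.

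All sums of 1 library share its mice and are thereby paired. After subtracting each group mean, pairs of sums had a median correlation of 0.0782, 0.0659 and 0.101 over clusters and 0.108, 0.105 and 0.0838 over classes. Alternatives were a block term for the library, DESeq2 1.42.0, library sizes without TMM, no filter, each library left out, doublets left out (the 6% with the highest scores per library, 1811 barcodes, 85 of them cDC1s) and cells thinned to 3900 UMIs (288 of 5806 cDC1s were shallower and left out).

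All barcodes with at least 200 genes and at most 16.7% mitochondrial UMIs (28855 of 30209) went into a new clustering on 1999 variable genes, 50 principal components, 20 neighbours and Leiden resolution 1 (0.5 as an alternative), which gave 26 clusters (Python 3.11.15; leidenalg 0.10.2 run through scanpy 1.11.5). A cluster was named if it held at least 3 markers of a type (UMIs in at least 10% of its barcodes, CPM at least 2-fold the median cluster). Where more of a cluster's 10 leading genes belonged to another type with at least 3 markers held, that type gave the name: so 1 of the 2 precursor clusters (5 pre-cDC and 6 plasmacytoid markers) and the T-cell-like cluster were named. Other clusters that held markers of 2 types about equally, with none of the better type among the leading genes, were left unnamed, a rule chosen after the data were seen.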

Additional observations from a re-analysis of the deposited data

Results flagged for a closer look

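Barcodes outside the compared groups also held *Clec9a* above the level of NK-like barcodes (3.91 CPM in WT and 2.43 CPM in *sGsn-/-*) and of the *sGsn-/- Clec9a-/-* library. cDC1-like barcodes that the authors had not placed among the cDC1s gave 157 and 156 CPM, an average over 4 unlike clusters at 181 and 189, 98.8 and 112, 309 and 253, and 83.3 and 73.2 CPM. Proliferating barcodes gave 84.8 and 87.8 CPM, and 134 and 134 CPM and 128 and 119 CPM in the 2 proliferating clusters that hold 8 of 9 cDC1 markers. Plasmacytoid-like barcodes gave 87.1 and 114.5 CPM from 120 and 124 barcodes, with a UMI in 49.2% and 59.7% of them. T-cell-like barcodes gave 23.8 and 20.6 CPM from 20 and 37 UMIs in 68 and 150 barcodes.

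*Xcr1* stood at 166 and 170.0 CPM in the cDC1-like, 111 and 121 CPM in the proliferating, 12.2 and 46.3 CPM in the plasmacytoid-like and 21.4 and 30.6 CPM in the T-cell-like barcodes. There were 7.12 and 2.47 *Clec9a* UMIs for each *Xcr1* UMI in plasmacytoid-like and 1.11 and 0.673 in T-cell-like barcodes, against 0.821 and 0.756 in cDC1s. In the *sGsn-/- Clec9a-/-* library these classes held between 0 and 2 *Clec9a* UMIs each. Of the T-cell-like barcodes, 18.9% over the 3 libraries had doublet scores among the highest 6%, and 14.4% of the plasmacytoid-like ones. The part of doublets or free RNA in these values was not tested.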

How the results depend on the processing

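Of the values of the headline results under an alternative, 194 stayed the same, 20 were weaker, 5 stronger and 14 moved. Of the single genes' values, 467 stayed the same, 20 were weaker, 8 stronger, 22 moved and 32 changed sign. The cause of these changes was not tested. Some of the alternatives used fewer cells, UMIs or libraries.

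Brackets give the genes called among all genes tested in the same setting. Partners called in early cDC1s were 3 on thinned cells (2808 of 7061). With 1 library left out they were 3 to 5 (3186 of 9568 to 3988 of 9880). In cluster 10 they were 2 without the filter (1700 of 18137), 2 with DESeq2 (1709 of 9606) and 2 without doublets (1673 of 9603). On thinned cells they were 0 there (719 of 7061), and 1 to 2 with 1 library left out (1109 of 9568 to 1182 of 9880). Between clusters 8 and 10 they were 2 with library sizes (2759 of 9606) and 1 on thinned cells (1371 of 7061). With any library left out they were 2 (1769 of 9660 to 2145 of 9880). *Clec9a* between clusters 8 and 10 was -0.73 with library sizes (adjusted p = 0.00582, 0.0945 to 0.290 under the other tested alternatives). With 1 library, which allows no test, *Clec9a* was -0.94 to -0.71 in cluster 8, -0.65 to -0.11 in cluster 10, -5.81 to -5.24 in cDC2-like and -2.86 to -2.24 in pre-cDC-like barcodes.

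Genes tested were 7061 on thinned cells and 9568 to 9880 with 1 library left out, against 9606 in the main fit. On thinned cells, genes called were 2808 in early cDC1s, 1097 in cluster 7, 244 in cluster 9, 2725 in cluster 8, 719 in cluster 10 and 1371 between clusters 8 and 10. With 1 library left out they were 1416 to 1917 in cluster 7, 325 to 454 in cluster 9 and 1109 to 1182 in cluster 10. Genes past 2-fold were 11 (*sGsn-/-* against WT) and 39 (*sGsn-/- Clec9a-/-* against *sGsn-/-*). Genes past 1.5-fold were 235 (51 higher, 184 lower) and 348 (111 and 237) with clusters weighted equally, and 125 and 189 on thinned cells. With clusters weighted equally, cluster 11 and its 19, 29 and 12 cells included, 1 partner, *Card9*, passed in the second comparison (ratio 0.605), where cluster 11 held 25.5 CPM from 2 UMIs in *sGsn-/-* and 0 in *sGsn-/- Clec9a-/-* cells.

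With library sizes, called genes split into 1067 higher and 1628 lower in cluster 7 (1534 and 814 with TMM), 394 and 169 in cluster 9 (464 and 112), 1894 and 3280 in cluster 8 (2598 and 2039), 1057 and 1702 between clusters 8 and 10 (1536 and 1074) and 4793 and 2370 in pre-cDC-like barcodes (3214 and 3524), where the median was 0.18 (-0.02 with TMM).

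With library sizes *Cyba* in cDC2-like barcodes passed (0.22, adjusted p = 0.0183). The library as a block changed 2 calls: *Cyba* in cDC2-like (0.18, adjusted p = 0.0187) and *Vav1* in pre-cDC-like barcodes (-0.16, adjusted p = 0.0357) passed. Pairing by library changed no other call of the members.

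Signs changed as follows (log2, and where a library was left out the lowest and highest of those values). In early cDC1s *Vav1* ran from -0.0586 (without WT) to 0.0173 (without *sGsn-/-*). In cluster 7 *Plcg2* was -0.00434 with library sizes and *Card9* 0.0533 on thinned cells. In cluster 9 *Cyba* was -0.0251 with library sizes, -0.0190 without the filter, -4.2e-04 without doublets and -0.14 on thinned cells, and ran from -0.0478 (without WT) to 0.0515 (without *sGsn-/- Clec9a-/-*). *Plcg2* was -0.0755 there on thinned cells, *Syk* ran from -0.255 (without *sGsn-/-*) to 0.0492 (without WT) and *Ptpn6* ran from -0.183 (without WT) to 0.0139 (without *sGsn-/-*). In cluster 8 *Card9* was -0.15 with library sizes, -0.00537 without doublets and -0.47 on thinned cells, and ran from -0.16 (without WT) to 0.252 (without *sGsn-/- Clec9a-/-*), and *Ptpn6* was -0.0451 with library sizes and -0.0462 on thinned cells. In cluster 10 *Vav1* was -0.26 on thinned cells. Between clusters 8 and 10 *Plcg2* was -0.19 with library sizes and ran from -0.11 (without *sGsn-/- Clec9a-/-*) to 0.556 (without WT), and *Ptpn6* ran from -0.206 (without *sGsn-/- Clec9a-/-*) to 0.0411 (without *sGsn-/-*). In cDC2-like barcodes *Plcg2* was -0.0280 without the filter and ran from -0.0295 (without *sGsn-/-*) to 0.0268 (without WT). In pre-cDC-like barcodes *Plcg2* was 0.18 with library sizes, 0.0193 with DESeq2, 0.00601 without doublets, 0.0124 without the rule on 2 types and 0.0713 without the precursor cluster with plasmacytoid markers, and ran from -0.0420 (without WT) to 0.0320 (without *sGsn-/- Clec9a-/-*). *Vav1* was 0.0473 with library sizes and *Cyba* 0.0349 without that precursor cluster. The last of these had been past the threshold (-0.38), the others had not. The last 2 alternatives on cluster names were chosen after seeing the data; under the rule's absence *Cyba* in cDC2-like barcodes passed (0.46, adjusted p = 3.8e-04).

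*Card9* and *Cybb* lie under 10 CPM in cDC1s and were not read between genotypes over all cDC1s. Cluster 10 held 21 to 28 cells per library.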

Other observations

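Barcodes of classes outside the comparisons with cDC1s gave further levels of the partners. Monocyte- or macrophage-like barcodes held *Cybb* at 308, 322 and 279 CPM and *Cyba* at 1474, 1416 and 1544 CPM in the WT, *sGsn-/-* and *sGsn-/- Clec9a-/-* libraries, with *Card9* at 20.7, 20.8 and 18.3 CPM. Plasmacytoid-like barcodes held *Ptpn6* at 295, 271 and 285 CPM and *Vav1* at 71.95, 72.2 and 74.3 CPM. NK-like barcodes held *Syk* at 33.7, 29.2 and 34.9 CPM and *Plcg2* at 27.2, 26.6 and 24.1 CPM, and *Cybb* at 9.96, 2.15 and 2.64 CPM.

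Over all barcodes of a library, *Clec1b* and *Clec1a* were again lowest and *Clec12a* highest in the *sGsn-/- Clec9a-/-* library. *Clec1b* was at 3.39, 3.77 and 1.44 CPM, *Clec1a* at 3.96, 4.56 and 1.89 CPM and *Clec12a* at 85.7, 83.6 and 97.6 CPM. *Clec9a* was at 55.5 and 67.8 CPM, and 13 UMIs were counted over the 9273 barcodes of the *sGsn-/- Clec9a-/-* library.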
